A study of Sus scrofa with 12 samples.

Results

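The genes described here were 7 transcription factors of the trophectoderm, GATA2, GATA3, TFAP2A, TFAP2C, TEAD4, CDX2 and ELF3. They were listed by name, with earlier results of these data known, and the rule itself uses no measured value. The members are the entries of the expression tables that carry these gene symbols, and each symbol matched 1 of the 24358 genes measured. Expression was measured by RNA sequencing of pig induced pluripotent stem cells and given as FPKM, a level scaled to the length of the transcript and to the fragments mapped in each library, which allows levels of different genes to be compared per length. CDX2 and ELF3 did not reach 0.1 FPKM in 3 of the 6 libraries of either table, so 5 of the 7 genes were tested.

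The cells were PC-iPS, pig induced pluripotent stem cells made from pericytes and kept in LCDMV medium, which contains LIF. The 12 libraries fell into 4 groups of 3. WT PC-iPS carried no reporter. NANOG tdTomato knock-in positive PC-iPS carried a FLAG, tdTomato and puromycin resistance cassette joined to NANOG by CRISPR-Cas9. The remaining groups were knock-in positive cells given Activin A or SB431542, for which the study used its LCDMV medium without LIF. The dose and time of these treatments are not in the labels of the libraries. The paper ran its cytokine screen without feeder cells. It does not state whether the treated cells for sequencing were grown on feeders. That libraries 1 to 3 of the treated groups come from knock-in lines 1 to 3 was inferred from the shared numbers and is not stated in the labels. The knock-in lines, numbered 1 to 3, came from separately transfected cultures selected with puromycin and sorted for tdTomato, and each may hold cells of several genotypes rather than 1 clone. The sort was for the product of the NANOG locus, so NANOG itself is not an independent readout between knock-in and WT cells. Nothing in the labels says that the 3 WT libraries came from separate cultures, so p-values in that comparison measure the spread between these libraries, which may be technical.

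The trophectoderm is the outer epithelium of the blastocyst, which forms the fetal part of the placenta, while the inner cell mass gives the embryo proper. TEAD4 is the DNA-binding partner of YAP1 and WWTR1 in the Hippo pathway and acts early in the outer cells of the mouse embryo, upstream of CDX2 and GATA3. The GATA and AP-2 factors, GATA2, GATA3, TFAP2A and TFAP2C, maintain trophoblast gene programmes, and ELF3 is an epithelial ETS factor. All are also used in other tissues, among them blood, surface ectoderm, neural crest and gut. Activin A signals through type I receptors to SMAD2 and SMAD3, and SB431542 blocks those receptors.

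Positions were taken by symbol from RefSeq's pig assembly Sscrofa11.1, where every one of these genes is protein coding. GATA2 lies at chr13:71981139-71997626, where its span overlaps the non-coding RNA gene LOC102160340. TFAP2A lies at chr7:7221654-7244626 and overlaps LOC106504315. Whether reads were counted by strand is not given in the sources used here. Only whole gene spans were compared, so whether reads of these overlapping genes were counted for GATA2 or TFAP2A was not tested. GATA3 lies at chr10:63367684-63397977, TFAP2C at chr17:57164400-57174923, TEAD4 at chr5:67130392-67167579, CDX2 at chr11:5339727-5346081 and ELF3 at chr10:24237852-24242266.

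Depth could be read only in relative terms, since FPKM values carry no read totals. From the spacing of low values, the WT libraries had 0.57 to 0.63 of the depth of knock-in library 1 and the other knock-in libraries 0.73 and 0.87, so low values in WT cells are the less precise. Summed FPKM ran from 364241 to 390320 per library, and 15339 to 15827 genes were above 0. Of the pluripotency markers, SOX2 lay between 39.1 and 71.5 FPKM and SALL4 between 10.1 and 18.3 FPKM over the 12 libraries. TDGF1 was listed at 0 in 9 of them, and POU5F1 had no entry under that symbol. The paper describes PC-iPS as made with added factors that include SOX2. Whether SOX2 reads came from an added copy was not tested.

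The first comparison asked how the members differ between NANOG tdTomato knock-in positive PC-iPS and WT PC-iPS. TFAP2A and TEAD4 were higher in the knock-in cells by the test. GATA2 and TFAP2C showed fold changes of like size, with no overlap between the groups, but just missed the threshold of an adjusted p of 0.05. GATA3 stayed near or below 1 FPKM in both groups, and CDX2 and ELF3 were at or near 0. Genes were tested with limma on log2(FPKM + 1), with p-values adjusted over all genes by the Benjamini-Hochberg method, and were called where the adjusted p was 0.05 or less and the log2 difference was 1 or more in either direction. By that rule 2 of the 5 tested members were called higher and 0 lower, where 1.61% of the 14014 genes tested were called higher and 0.706% lower. For 4 of the 5 members every knock-in library was above every WT library, which was so for 19.0% of all genes tested. The median log2 fold change of the 5 members was 1.32, beside -0.0014 over all genes.

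TFAP2A, one of the AP-2 factors, measured 4.72, 5.43 and 6.38 FPKM in the WT libraries and 12.7, 25.8 and 17.9 FPKM in knock-in lines 1, 2 and 3. The lowest knock-in library was thus well above the highest WT library. Mean levels were 5.51 ± 0.833 FPKM in WT and 18.8 ± 6.60 FPKM in knock-in cells (SD, n = 3 each). The log2 fold change was 1.56 with a standard error of 0.24 (limma, adjusted p = 0.0186). The call was lost without WT library 1, when limma gave an adjusted p of 0.0596, and without WT library 2, at 0.0502. Over 15 settings, the reported one included, the limma adjusted p of TFAP2A ran from 0.0135 to 0.0596.

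TEAD4, the Hippo pathway factor, measured 5.43, 5.07 and 5.79 FPKM in the WT libraries and 12.7, 15.1 and 10.1 FPKM in the knock-in lines. All 3 knock-in lines were above the narrow WT range, line 2 most of all. The means were 5.43 ± 0.358 FPKM and 12.7 ± 2.49 FPKM (SD, n = 3 each), and the log2 fold change was 1.07 with a standard error of 0.16 (limma, adjusted p = 0.0173). This fold change is close to the threshold of 1. Without knock-in line 2 it was 0.95 at a limma adjusted p of 0.0640, and without knock-in line 1 it was 1.06 at 0.0760. The limma adjusted p of TEAD4 over the 15 settings ran from 0.0123 to 0.0760.

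GATA2, which is needed in trophoblast and in blood stem cells, measured 3.96, 2.17 and 1.97 FPKM in the WT libraries and 5.09, 13.2 and 7.41 FPKM in the knock-in lines. The groups did not overlap, although knock-in line 1 was near the highest WT library. The log2 fold change was 1.32 with a 95% interval of 0.54 to 2.10 and did not pass (limma, adjusted p = 0.0566). It passed with a filter of 1 FPKM (limma, adjusted p = 0.0451) and after rescaling to TPM (0.0460), and the range over 15 settings was 0.0451 to 0.137.

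TFAP2C, the AP-2 factor shared by trophoblast and germ cells, was low in WT PC-iPS, at 0.512, 0.734 and 0.575 FPKM. In the knock-in lines it measured 2.82, 9.41 and 2.28 FPKM, every line above every WT library and line 2 far above lines 1 and 3. The ratio of the group means was 7.96, the largest among the 5 tested members. On the log2 scale the difference was 1.66, with a standard error of 0.40, and missed the threshold (limma, adjusted p = 0.0511). At a pseudocount of 0.1 in place of 1 it was 2.53 (limma, adjusted p = 0.0300), and it also passed without knock-in line 2, at 1.14 (0.0291), or without line 3, at 1.98 (0.0480). The range of the adjusted p over 15 settings was 0.0291 to 0.126.

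GATA3, an early trophectoderm factor and a regulator of T cells, measured 0.771, 0.663 and 0.220 FPKM in the WT libraries and 0.513, 1.12 and 0.542 FPKM in the knock-in lines. The groups overlapped, and the difference of 0.15 on the log2 scale had a 95% interval of -0.29 to 0.60 (limma, adjusted p = 0.626). ELF3 did not exceed 0.0769 FPKM in these 6 libraries, and CDX2 was listed at 0 in each. Commonly used reference genes such as B2M and TBP were above 0 in every library, the lowest value among 7 of them being 1.83 FPKM. A two-sided exact permutation test of 3 against 3 libraries, whose smallest possible p is 0.1, gave 0.1 for GATA2, TFAP2A, TFAP2C and TEAD4 and 0.6 for GATA3.

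**Figure D1:**
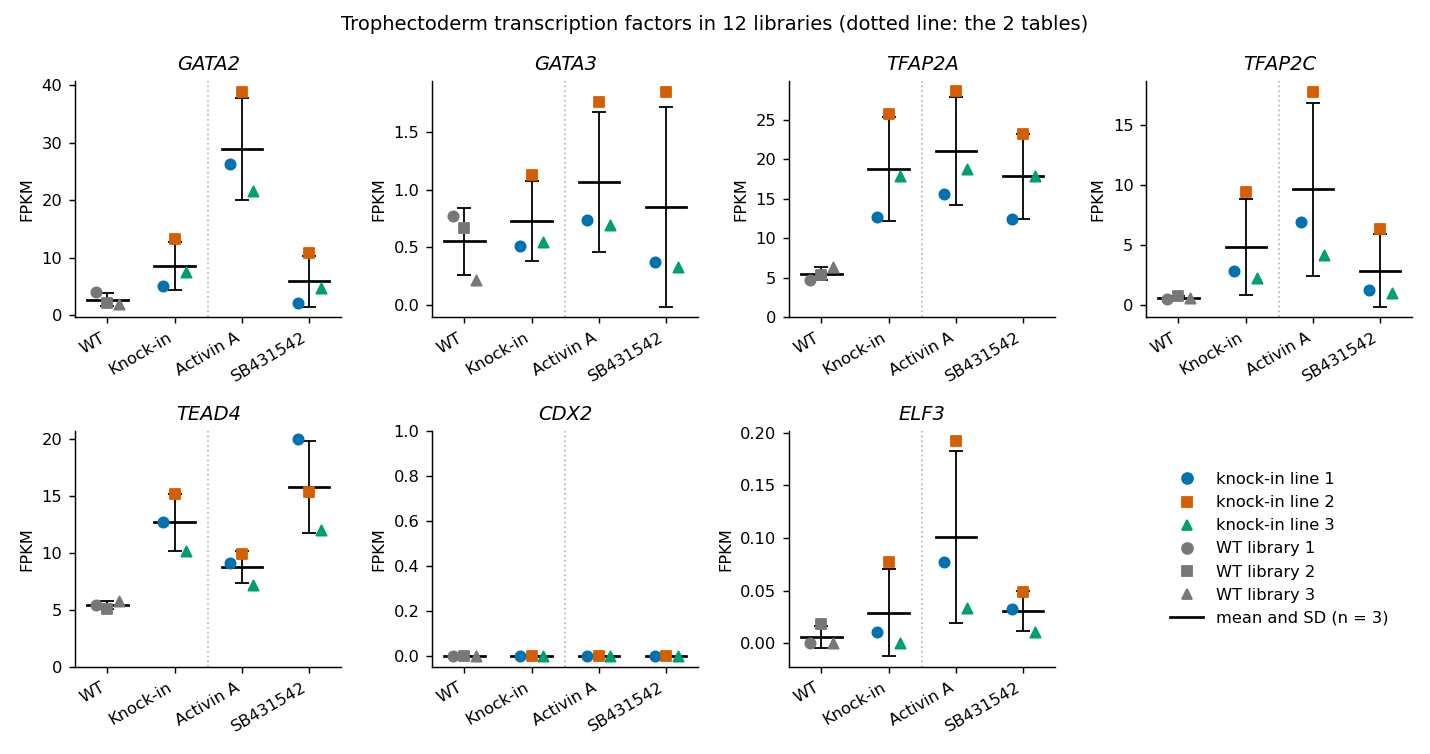
Expression of the 7 trophectoderm factors in FPKM (vertical axis, linear, a scale for each gene) in the 12 libraries, arranged by group on the horizontal axis, with points for libraries, horizontal bars for group means and error bars for the SD (n = 3). The dotted line parts the 2 tables, each of which was tested on its own. TFAP2A, TFAP2C, TEAD4 and GATA2 lie higher in every knock-in library than in every WT library, GATA2 reaches 38.9 FPKM with Activin A, and CDX2 is listed at 0 throughout.

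Markers of the cells of origin and of feeder cells moved in the same comparison. Of 16 pericyte and fibroblast markers 14 were tested and 4 were called higher in knock-in cells, namely TAGLN, ACTA2, PDGFRB and DCN, and 0 lower. Over all genes 1.61% were called higher and 0.706% lower. An unadjusted p under 0.05 was reached by 8 of the 14 (limma), beside 28.6% of all genes. Of the 14, 11 had a log2 fold change above 0 and 3 below it, among them COL1A1, named after its values were seen, at 1.09, 1.46 and 0.838 FPKM in WT and 0.739, 0.782 and 0.345 FPKM in knock-in cells. The summed level of the 16 markers was 276 to 335 FPKM in the WT libraries and 857 to 965 FPKM in the knock-in libraries. None of the 16 was at 0 in all 12 libraries. Most of the sum came from VIM, at 210 to 283 FPKM in WT and 399 to 462 FPKM in knock-in cells, and, in knock-in cells, from TAGLN, at 15.2 to 26.6 FPKM in WT and 299 to 457 FPKM in knock-in cells. Their part in the differences of TFAP2A, TEAD4, GATA2 and TFAP2C was not tested. In bulk libraries, fewer cells with a transcript and less transcript per cell cannot be told apart.

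The second comparison asked how the members differ between Activin A and SB431542, with the libraries of the same line number set side by side. GATA2 and TFAP2C had higher levels with Activin A in all 3 lines, by 2.80 to 12.2 times, and TEAD4 had lower levels in all 3 lines. TFAP2A was higher by at most 1.25 times and GATA3 had no common direction. Higher values in all 3 lines were found for 23.7% of all genes and lower values for 25.2%. Without regard to the line numbers, 0 of the 5 tested members were called in either direction, where 0.0571% of the 13999 genes tested were called higher and 0.0357% lower. At an unadjusted p under 0.05, limma without the line block had GATA2 at 0.0021, TFAP2C at 0.0496 and TEAD4 at 0.0063, a level reached by 12.8% of all genes in this comparison. With the line number as a block, 2 members were called higher, GATA2 and TFAP2C, where 0.521% of all genes were called higher and 0.186% lower. GATA2 was the member whose groups did not overlap upwards (9.19% of all genes) and TEAD4 the one whose groups did not overlap downwards (10.8%). The median log2 fold change of the 5 members was 0.22, beside -0.0040 over all genes.

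GATA2 measured 26.3, 38.9 and 21.7 FPKM with Activin A and 2.15, 10.8 and 4.74 FPKM with SB431542 in lines 1, 2 and 3. Every Activin A library was above every SB431542 library, by at least the gap between 21.7 and 10.8 FPKM. Within the lines the Activin A level was 12.2, 3.60 and 4.57 times the SB431542 level. The log2 fold change was 2.28 with a standard error of 0.47 without the block (limma, adjusted p = 0.155) and of 0.28 with it (limma, adjusted p = 0.0340). Without the block only 0.0429% of the genes tested had a larger rise.

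TFAP2C measured 6.93, 17.8 and 4.21 FPKM with Activin A and 1.27, 6.36 and 1.01 FPKM with SB431542. The groups overlapped, because line 2 with SB431542 was above line 3 with Activin A. Within lines the ratios were 5.46, 2.80 and 4.18, always in favour of Activin A. On the log2 scale the difference was 1.51. Its standard error was 0.63 without the block (limma, adjusted p = 0.389) and 0.12 with it, where the 95% interval was 1.19 to 1.83 (limma, adjusted p = 0.0187). Without the block the difference ran from 1.00 when Activin A library 2 was left out to 2.11 when SB431542 library 2 was left out.

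When a line was left out of both groups, the log2 fold change of GATA2 stayed between 1.87 and 2.55 but was not called (limma with the block, adjusted p = 0.0621, 0.0569 and 0.0744 without lines 1, 2 and 3). TFAP2C was not called without line 1, at 1.36 (limma with the block, adjusted p = 0.105), or without line 2, at 1.59 (0.0501), and was called without line 3 (limma with the block, log2 fold change 1.58, adjusted p = 0.0396). Neither was called with the block when no filter on low values was set. Over the 9 settings with the block the limma adjusted p ran from 0.0300 to 0.0918 for GATA2 and from 0.0165 to 0.105 for TFAP2C.

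TEAD4 went the other way, at 9.15, 9.86 and 7.17 FPKM with Activin A and 19.9, 15.3 and 11.98 FPKM with SB431542. Its groups did not overlap, and the SB431542 level was 2.18, 1.56 and 1.67 times the Activin A level in lines 1, 2 and 3. This gave a log2 fold change of -0.77 with a 95% interval of -1.24 to -0.30 (limma, adjusted p = 0.203). With the block the limma adjusted p was 0.0453, but TEAD4 was not called, because the change was smaller than 1 on the log2 scale.

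TFAP2A measured 15.6, 28.7 and 18.8 FPKM with Activin A and 12.4, 23.2 and 17.9 FPKM with SB431542. The lines differed more than the treatments, and the ratios within lines were 1.25, 1.23 and 1.05. The log2 fold change was 0.22 with a 95% interval of -0.44 to 0.89 without the block (limma, adjusted p = 0.777) and of 0.026 to 0.42 with it (limma, adjusted p = 0.177).

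GATA3 measured 0.739, 1.76 and 0.695 FPKM with Activin A and 0.371, 1.85 and 0.331 FPKM with SB431542. Lines 1 and 3 were low in both groups and line 2 was high in both. For GATA3 the log2 fold change was 0.22 with a 95% interval of -0.59 to 1.02 (limma, adjusted p = 0.830). ELF3 reached its highest level of the 12 libraries, 0.192 FPKM, in line 2 with Activin A, and CDX2 was again listed at 0. The exact two-sided permutation test, which disregards the lines, gave 0.1 for GATA2 and TEAD4, 0.2 for TFAP2C, and 0.6 for TFAP2A and GATA3.

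**Figure D2:**
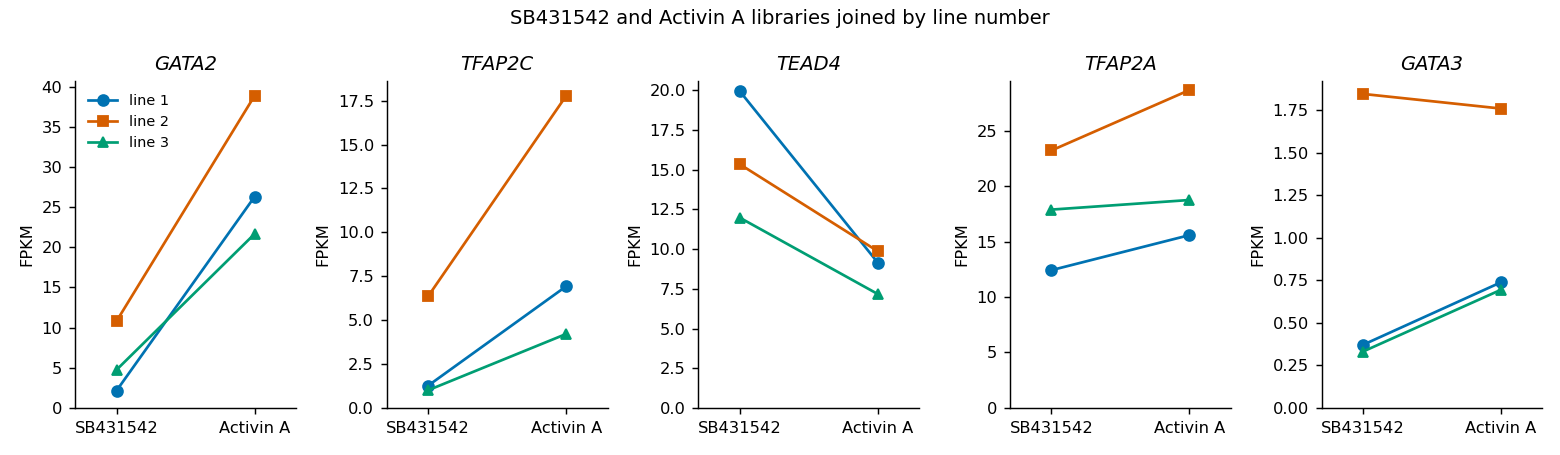
FPKM of the 5 tested members (vertical axis from 0, a scale for each gene) with SB431542 and Activin A on the horizontal axis, each line joining the 2 libraries with the same number, taken as 1 knock-in line. GATA2 and TFAP2C climb in all 3 lines (GATA2 from 2.15 to 26.3 FPKM in line 1), TEAD4 declines in all 3 lines, and GATA3 in line 2 goes from 1.85 to 1.76 FPKM.

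**Figure D3:**
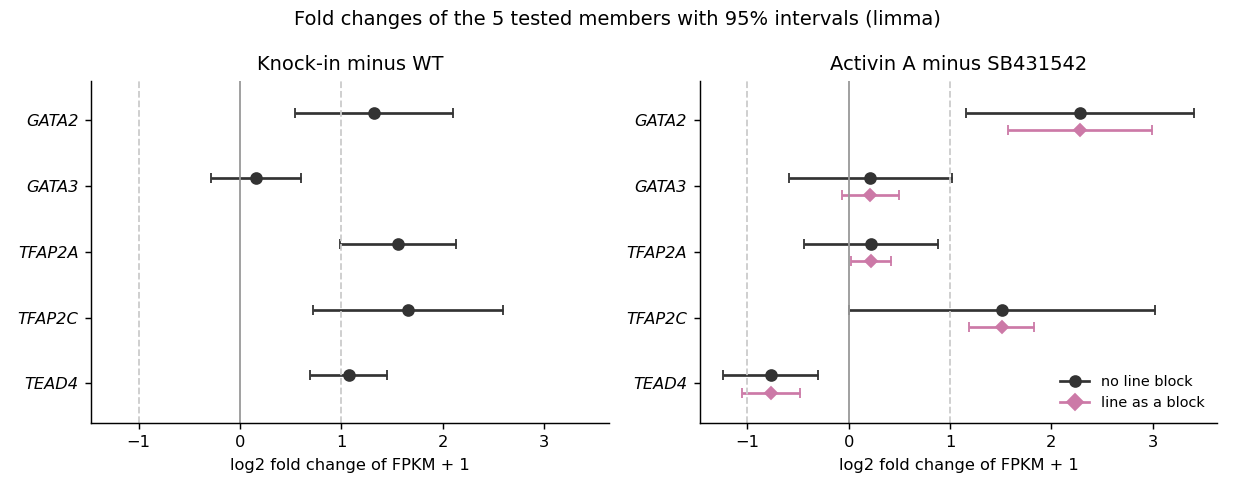
Log2 fold changes of FPKM + 1 with 95% intervals from limma (horizontal axis) for the 5 tested members, knock-in minus WT on the left and Activin A minus SB431542 on the right, with circles for the fit without and diamonds for the fit with the line block. Dashed lines mark a log2 fold change of 1 in either direction. The intervals of GATA2 and TFAP2C on the right narrow with the block and lie above 1, from 1.57 and from 1.19, while that of TEAD4 spans -1.05 to -0.48.

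Markers of other cells also moved between these treatments. The summed pericyte and fibroblast markers overlapped, at 827 to 896 FPKM with Activin A and 880 to 1003 FPKM with SB431542. ACTA2 was called lower with Activin A with and without the block, and COL1A2 and COL3A1 were called higher with the block. The part of these markers in the differences of GATA2, TFAP2C and TEAD4 was not tested. NANOG, which Activin A signalling is known to maintain, measured 109, 195 and 157 FPKM with Activin A and 11.8, 27.2 and 11.8 FPKM with SB431542, with no overlap.

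When the group levels were ordered, GATA2 was highest with Activin A (28.9 ± 8.90 FPKM), then in knock-in cells (8.56 ± 4.16), with SB431542 (5.90 ± 4.44) and in WT (2.70 ± 1.09; SD, n = 3 each). The Activin A libraries stood apart from the knock-in libraries, whereas knock-in and SB431542 overlapped, as did SB431542 and WT. TFAP2C had the same order, at 9.64 ± 7.18, 4.84 ± 3.97, 2.88 ± 3.02 and 0.607 ± 0.114 FPKM, and there WT was the group that stood apart. The libraries of the 2 tables were compared only as levels, with no test, because the tables may have been normalized separately. The media also differed, with LIF for untreated cells and without it for treated cells. Treatment, medium and table therefore cannot be told apart in this order.

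TFAP2A also followed this order, at 21.0 ± 6.83, 18.8 ± 6.60, 17.8 ± 5.40 and 5.51 ± 0.833 FPKM, with the first 3 groups overlapping widely and WT apart. TEAD4 was highest with SB431542 (15.8 ± 3.998 FPKM), then in knock-in cells (12.7 ± 2.49), with Activin A (8.73 ± 1.40) and in WT (5.43 ± 0.358). SB431542 and knock-in libraries overlapped, while the Activin A libraries were below every knock-in library and above every WT library. GATA3 means ran from 0.551 ± 0.292 FPKM in WT to 1.06 ± 0.603 FPKM with Activin A, and no neighbouring groups were apart.

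Within each of the 3 lines, GATA2, TFAP2C and TFAP2A had the order Activin A above untreated knock-in above SB431542. The same order held for 5.59% of 13891 genes at 0.1 FPKM or more in 6 or more libraries. It crosses the 2 tables and their media. For TFAP2A in line 3 the last step was only from 17.91 to 17.89 FPKM. TEAD4 had the opposite order in all 3 lines, as did 5.09% of the genes. For TEAD4 in line 2 the step from knock-in to SB431542 was only from 15.11 to 15.35 FPKM. With Activin A, GATA2 was the most abundant of the 7 factors in every library, with 40.0% to 44.7% of their summed FPKM. In the other 9 libraries TFAP2A or TEAD4 led.

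Line 2 stood above the other lines for most members. It had the highest level of GATA2, GATA3, TFAP2A and TFAP2C among untreated, Activin A and SB431542 libraries alike, 4 of the 5 tested members, where 10.5% of the 13891 genes had line 2 highest in all 3 conditions. For TFAP2C line 2 had 3.69, 3.19 and 5.59 times the mean of lines 1 and 3 in the knock-in, Activin A and SB431542 groups. For GATA2 these ratios were 2.11, 1.62 and 3.14, and for TFAP2A 1.69, 1.67 and 1.53. TEAD4 was the exception, with line 1 highest under SB431542, at 19.9 FPKM. Each line had 1 library per condition, so these differences have no error of their own.

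Pairs of members were compared over the 12 libraries as Pearson correlations of log2(FPKM + 1), which share the groups and the lines and carry no test. GATA2 and TFAP2C correlated at 0.90 over all libraries. GATA2 and TEAD4 correlated at 0.87 within the knock-in and WT libraries and at -0.80 within the Activin A and SB431542 libraries, which left 0.13 over all 12.

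The genes most like each member were sought among 10441 genes with a symbol and a mean of at least 1 FPKM. HEY1 (r = 0.96), FBLN2 (0.96) and SLC13A4 (0.95) were most like GATA2. HEY1, a transcriptional repressor of the Notch and BMP pathways, measured 0.169 to 0.333 FPKM in WT and 6.01 to 10.8 FPKM with Activin A. HDC (0.98), the enzyme that makes histamine, EPHA7 (0.98) and the tight junction gene CLDN4 (0.96) were most like TFAP2C. EPHA7 shared its high line 2, at 30.3 FPKM with Activin A and 15.4 FPKM with SB431542.

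PIM3 (0.98), TGIF1 (0.98) and EGR4 (0.98) were most like TFAP2A. TGIF1, a homeodomain co-repressor of SMAD2 and SMAD3, measured 23.1 to 30.7 FPKM in WT and 58.1 to 82.5 FPKM in knock-in cells. CBARP (0.98), the ribosome rescue factor PELO (0.97) and the phosphate transporter SLC20A2 (0.96) were most like TEAD4. PELO was at 11.9 to 14.5 FPKM in WT and 23.2 to 29.1 FPKM with SB431542.

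Of 20 other trophectoderm and trophoblast factors 10 passed the filter. MSX2 and HEY1 were called higher in knock-in cells and 0 lower, and the median log2 fold change of the 10 was 0.39. Over all genes 1.61% were called higher and 0.706% lower. In that comparison 5 of the 10 had an unadjusted p under 0.05 (limma), beside 28.6% of all genes. MSX2, a homeobox target of BMP signalling, did not exceed 0.0865 FPKM in WT and measured 1.57, 4.69 and 1.69 FPKM in the knock-in lines. It therefore passed the filter of 0.1 FPKM through the knock-in libraries alone, the group in which it was high. Between Activin A and SB431542, 0 of the 10 were called by limma without the block, 3 had an unadjusted p under 0.05 (12.8% of all genes), and HEY1 was called higher with it (limma, log2 fold change 1.93, adjusted p = 0.0266). EOMES, ELF5, HAND1, GCM1, GRHL2, TBX3, VGLL1 and ISL1 did not exceed 0.0759 FPKM in any library and DLX3 was listed at 0. NR2F2, at 65.5 to 136 FPKM, was the most abundant of the list.

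Of 19 measured genes of the trophectoderm epithelium 16 were tested and KRT8 was called higher in knock-in cells, with 0 lower. Over all genes 1.61% were called higher and 0.706% lower. In that comparison 10 of the 16 had an unadjusted p under 0.05 (limma), beside 28.6% of all genes. KRT8, a keratin of simple epithelia, measured 7.51, 3.34 and 8.50 FPKM in WT and 96.7, 428 and 44.3 FPKM in knock-in lines 1, 2 and 3. Line 2 was thus highest, as for TFAP2C and GATA2. With SB431542 KRT8 measured 200, 835 and 90.4 FPKM and with Activin A 100, 334 and 35.3 FPKM. With the block it was called lower with Activin A (limma, log2 fold change -1.21, adjusted p = 0.0150), opposite to GATA2 and TFAP2C. Without the block it was not called (limma, adjusted p = 0.653). Of the 16 genes, 8 had a log2 fold change above 0 between the treatments, and the median was -0.0009. An unadjusted p under 0.05 was reached by 2 of the 16 (limma without the block), beside 12.8% of all genes. KRT7, a keratin of trophoblast, did not exceed 0.0196 FPKM.

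Of 9 measured products of the pig conceptus 5 were tested and 0 were called in either comparison, with or without the block. By the mean over the 12 libraries the prostaglandin synthases had the highest levels, though not in every group, PTGES at 1.22, 1.22 and 0.809 FPKM with SB431542 and 2.39, 4.66 and 2.31 FPKM with Activin A, and PTGS2 at 0.0943 to 0.399 and 0.880 to 1.88 FPKM. At an unadjusted p under 0.05, 3 of the 5 reached it between knock-in and WT, as did 28.6% of all genes, and 2 between Activin A and SB431542, as did 12.8% (limma without the block).

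Among 17 other genes of the GATA, AP-2, TEAD, CDX and ETS families 10 were tested and 0 were called in either comparison. TEAD2, at 40.1 to 59.4 FPKM, and TFAP2B, at 15.5 to 39.9 FPKM, had the highest means over the 12 libraries, and both were above the levels of TEAD4 and TFAP2C in every library. Their log2 fold changes were 0.24 and 0.60 between knock-in and WT and 0.13 and 0.23 between Activin A and SB431542. The median of the 10 was -0.07 in the first comparison. At an unadjusted p under 0.05, 5 of the 10 reached it between knock-in and WT, beside 28.6% of all genes, and 4 between the treatments, beside 12.8% (limma without the block). GATA6, a factor of the primitive endoderm named after its values were seen, had a log2 fold change of 0.9988 in the first comparison, just under the threshold of 1 (limma, adjusted p = 0.0289).

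Of 16 tested genes of the Hippo pathway and of TEAD targets, CCN1, CCN2, AJUBA and LATS2 were called higher in knock-in cells and 0 lower. Over all genes 1.61% were called higher and 0.706% lower. In that comparison 7 of the 16 had an unadjusted p under 0.05 (limma), beside 28.6% of all genes. CCN1 and CCN2, secreted matrix proteins used as readouts of YAP1 and TEAD activity, had log2 fold changes of 3.06 and 1.96. ANKRD1, another gene of the list named after its values were seen, did not exceed 0.336 FPKM and was not tested. LATS2, the kinase that phosphorylates YAP1, measured 5.25 to 5.85 FPKM in WT and 14.3 to 16.97 FPKM in knock-in cells. Between Activin A and SB431542, 0 of the 16 were called by limma without the block, and 7 had an unadjusted p under 0.05, beside 12.8% of all genes. CCN2 was called higher with Activin A with the block (limma, log2 fold change 1.62, adjusted p = 0.0445), opposite to TEAD4, and AJUBA, a LIM protein that binds LATS kinases, had a log2 fold change of -0.64, the same sign as TEAD4.

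Of the BMP readouts, 5 of 10 were called higher in knock-in cells, namely GREM1, MSX2, NOG, ID1 and ID3, with 0 lower. Over all genes 1.61% were called higher and 0.706% lower. An unadjusted p under 0.05 was reached by 7 of the 10 (limma), beside 28.6% of all genes. The median log2 fold change of the 10 was 1.02. MSX2 passed the filter through the knock-in libraries alone. GREM1, at 0.163, 0 and 0.109 FPKM in WT, passed it only with the knock-in libraries, at 1.16, 3.14 and 0.841 FPKM. Both were admitted through the group in which they were high. ID1, an inhibitor of basic helix-loop-helix factors, measured 1.28 to 1.87 FPKM in WT and 4.86 to 10.5 FPKM in knock-in cells. ID2 and BAMBI were called higher with Activin A with the block, at log2 fold changes of 1.28 and 1.11 (limma, adjusted p = 0.0190 and 0.0163). Of 6 tested Activin readouts, NANOG was called higher in knock-in cells, and 5 had an unadjusted p under 0.05 (limma). NANOG, SMAD7 and LEFTY2 were called higher with Activin A without the block, beside 0.0571% of all genes. LEFTY2 was listed at 0 in all SB431542 libraries and passed the filter through the Activin A libraries alone. With the block PMEPA1 was called as well. The Activin readouts had the largest median of the lists between the treatments, 1.41.

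Of the inner cell mass genes, LIN28A and NANOG were called higher of 9 tested in knock-in cells, beside 1.61% of all genes. An unadjusted p under 0.05 was reached by 4 of the 9 (limma), beside 28.6% of all genes. LIN28A, an RNA-binding protein that blocks let-7, measured 90.0, 200.04 and 67.5 FPKM with Activin A and 327, 498 and 192 FPKM with SB431542. It was called lower with Activin A with the block (limma, log2 fold change -1.55, adjusted p = 0.0150), the same direction as the values of TEAD4. Without the block NANOG was called higher of 10 tested, beside 0.0571% of all genes.

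Lists for other tissues that use these factors were read beside the 1.61% of all genes called higher and 0.706% lower in knock-in cells. TWIST1 was called higher of 7 surface ectoderm and neural crest genes in knock-in cells, and MECOM, a zinc finger factor, was called lower of 6 blood and endothelium genes. MECOM measured 6.72, 10.1 and 4.06 FPKM in WT and 0.775, 0.734 and 2.38 FPKM in knock-in cells. Of 3 gut and posterior mesoderm genes and 5 amnion genes 0 were called by limma in that comparison. An unadjusted p under 0.05 was reached by 0 and 3 of them, beside 28.6% of all genes. It was also reached by 2 of the 7 surface ectoderm and neural crest genes and 2 of the 6 blood and endothelium genes. Between Activin A and SB431542, 0 genes of these 4 lists were called by limma with or without the block. An unadjusted p under 0.05 was reached by 2 of 8 surface ectoderm and neural crest genes and 1 of 6 blood and endothelium genes, beside 12.8% of all genes. Few of their genes passed the filter, so these counts rest on small numbers.

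**Figure D4:**
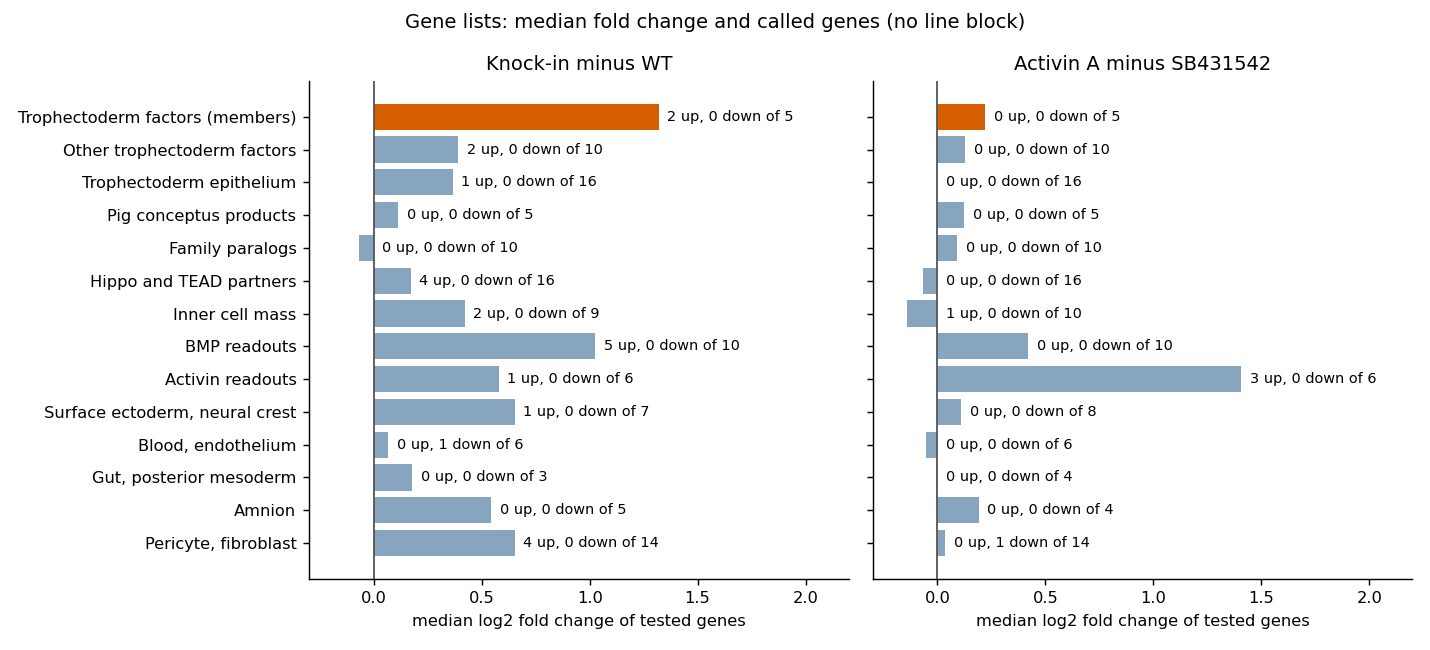
Median log2 fold change of FPKM + 1 (horizontal axis, bars from 0) of the tested genes of the trophectoderm factors and 13 other lists, knock-in minus WT on the left and Activin A minus SB431542 on the right, with the counts of genes called higher (up) and lower (down) by limma without the line block beside each bar. The 5 tested trophectoderm factors have a median of 1.32 on the left, beside 1.02 for the BMP readouts, and of 0.22 on the right, beside 1.41 for the Activin readouts.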

How the data were processed

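RNA was sequenced from 12 libraries of pig PC-iPS, 3 in each of 4 groups, taken after feeder cells had been removed. The authors deposited FPKM per gene in 2 tables of 24358 genes and 6 libraries. Per the study's methods and the submitters' processing notes, reads were trimmed with Trim Galore, aligned to Ssc 11.1 with HISAT2 2.0.4 and quantified with StringTie 1.3.3 and Ensembl 97. FPKM gives no library totals, so depth is relative and counting error cannot be given. The authors tested read counts, not used here, with DESeq2.

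Within each table, genes that reached 0.1 FPKM in 3 or more libraries were tested on log2(FPKM + 1), by limma 3.58.1 with a variance trend in R 4.3.3. Fold changes on this scale understate those of low genes. The script was tested on simulated data. No test crosses the tables, and 599 genes carry different name cells in them. Symbols came from the tables for 20394 genes and from a reference table for 834 more.

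The pairing was inferred from the numbers in the labels, which match those of the knock-in lines, and the labels do not state it. Deviations from group means of same-numbered Activin A and SB431542 libraries correlated at 0.40, 0.59 and 0.53 over 13999 genes, so the number was also used as a block.

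The members and the 13 other lists were chosen with earlier results of these data known. From each list were named the called genes, at most 5, and, where fewer than 2 were called, the 2 with the highest mean. For each member with a mean of at least 1 FPKM, the 3 genes with the highest correlation were named. Others are marked, and a gene that the rule names is not reported here. Alternatives were pseudocounts of 0.1 and 0.01, no filter, a minimum of 1 FPKM, scaling to TPM or by median ratios, no trend, the block, and leaving out each library. Settings that join the block to another change were chosen after seeing the data. Python 3.11.15 with matplotlib 3.10.9 drew the figures.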

Additional observations from a re-analysis of the deposited data

Results flagged for a closer look

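GATA3 differed in direction between the lines when Activin A was compared with SB431542. The difference of log2(FPKM + 1), Activin A minus SB431542, was 0.34 in line 1 and 0.35 in line 3, whereas it was -0.044 in line 2, the line with the highest GATA3 level in both treatments. With 1 library per line and treatment, this difference between lines was not tested.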

How the results depend on the processing

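TFAP2A and TEAD4 kept their calls between knock-in and WT in all settings other than those leaving out a library. Of the members, 4 were called higher with a filter of 1 FPKM and 4 with TPM, where GATA2 and TFAP2C joined them. TFAP2C passed the filter of 1 FPKM through its knock-in libraries alone, since no WT library exceeded 0.734 FPKM. Of all genes, 242 and 326 were called higher in these settings (225 as reported). Without each library in turn, 1 to 3 members were called higher. Over all genes, 346 were called higher with a pseudocount of 0.1, and 117 to 303 without each library. Called lower were 192 with a pseudocount of 0.1, 181 with 0.01, 42 with no filter, 156 with TPM, and 28 to 143 without each library. Library numbers did not pair knock-in with WT libraries (correlations of deviations -0.018, 0.0087 and 0.094), and with the replicate block 60 genes were called lower and the calls of TFAP2A and TEAD4 held.

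Between Activin A and SB431542, 2 members were called higher with the replicate block, and likewise 2 when the block was joined with a pseudocount of 0.1, TPM, a filter of 1 FPKM or median-ratio scaling. Without each library or line in turn, 0 to 1 were called. Over all genes, 73 were called higher and 26 lower with the replicate block, 5 and 3 with a pseudocount of 0.01, 3 and 2 with no filter, 2 and 3 with a filter of 1 FPKM, 3 higher without the trend, and 0 to 4 higher and 0 to 1 lower without each library.

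Small fold changes turned sign when a library was left out. GATA3 between knock-in and WT ran from -0.0090 without WT library 3 to 0.26, and was -0.0036 without knock-in line 2. Between the treatments GATA3 ran from -0.013 without Activin A library 2 to 0.57, and TFAP2A from -0.017 without Activin A library 2 to 0.42, and was -0.0031 without SB431542 library 1. The cause of these shifts was not tested. The TPM and median-ratio scalings moved the median of all genes to 0.026 and -0.0073 in the first comparison and to -0.029 and 0.0030 in the second.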
